A study of Homo sapiens with 7 samples.

Results

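The sites described here were the eIF3a contact clusters of HEK293T cells that had another cluster of the same strand less than 100 nt away. They numbered 845 of 3566 clusters on the primary chromosomes (23.7%), and they were chosen by distance alone. Rows of the deposited list with the same chromosome, strand and coverage profile were counted as 1 cluster where they fitted within the length of the profile. Distance was taken from the edge of one listed interval to the edge of the next, and overlap counted as 0. Of the other clusters, 360 had their nearest neighbour at 100 to 999 nt and 2361 lay 1000 nt or more from any other, and the last are called isolated below.

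eIF3 is a large complex of many subunits that binds the small ribosomal subunit and takes part in bringing it to mRNA. Its subunit eIF3a is known to lie near the path of the mRNA on the small subunit. In CLIP methods, ultraviolet light joins a protein to the RNA it touches, and the fragments that come down with the protein are sequenced. A cluster is a stretch of the genome covered without interruption by such fragments. Closely spaced clusters can be separate contacts or parts of a longer stretch that was thinly sampled, and the distance alone does not tell which.

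The study made 2 replicates of eIF3a PAR-iCLIP, in which cells take up 4-thiouridine so that ultraviolet light joins protein to the labelled uridines. HEK293T cells, an established line of kidney origin, were labelled for 8 h, exposed to light of 354 nm, and lysed for precipitation with an antibody against eIF3a. Nothing in the labels names a heat shock, a knockdown or an unprecipitated control for these samples. The 5 m6A samples of the series were not analysed here.

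The deposited list gave no replicate for any row, so the values below carry no replicate error and no p-value. Intervals in brackets are 95% Wilson intervals for shares and 95% order-statistic intervals for medians. Both cover counting error alone, and the clusters of 1 run are not independent. Sites are named by position on hg19, counting from 1, without gene names, because no hg19 annotation or sequence was used here. The depth of the libraries is unknown. Reads, which could be counted because every profile split exactly into reads of 25 nt, are those in listed clusters only.

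The close-spaced clusters were ordinary in size. They held 8296 reads, 21.6% of the 38419 in all primary clusters, for 23.7% of the clusters. Of these reads, 363 were repeats in overlapping clusters, which are described below. A close-spaced cluster had a median of 6 reads (6 to 7), the quartiles being 4 and 11 and the extremes 3 and 115. Isolated clusters also had a median of 6 reads (6 to 6), with quartiles of 4 and 12, and clusters with a neighbour at 100 to 999 nt had a median of 8 (7 to 9). The score, which is the highest coverage of a cluster in whole reads, had a median of 5 in each of these classes. The profile was 60 nt long at the median (58 to 63) in close-spaced clusters and 60 nt (58 to 62) in isolated ones. Reads per 100 nt of profile were 10.9 (10.5 to 11.1) and 10.5 (10.3 to 10.7). None of these differences was tested.

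Clusters with many reads were not concentrated among them. A total of 93 close-spaced clusters, 11.0% (9.07 to 13.3), held 20 or more reads, beside 13.6% of all primary clusters and 16.7% (13.2 to 20.9) of those with a neighbour at 100 to 999 nt. A score of 10 or more was reached by 87 of them, 10.3% (8.42 to 12.5), beside 13.2% of all primary clusters and 20.3% (16.4 to 24.7) of those with a neighbour at 100 to 999 nt. At the low end, 230 held 4 or fewer reads, 27.2% (24.3 to 30.3), beside 31.7% of all primary clusters and 25.8% (21.6 to 30.6) of those with a neighbour at 100 to 999 nt. The least covered close-spaced clusters had 3 reads and numbered 102. The primary chromosomes held 39 clusters of fewer reads, none of them with a close neighbour. In close-spaced clusters no start position held more than 1 read. Their reads are thus numbers of different start positions, and with reads of 25 nt their score could not exceed 25. High values therefore need not follow depth. The counts include overlapping clusters, which listed the same reads more than once. In runs without overlap, 20 or more reads were held by 47 of 586 clusters (8.02%) in runs of 2. In longer runs without overlap the count was 27 of 209 (12.9%).

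Most close neighbours lay far closer than the limit. Between neighbours that did not overlap there were 451 gaps, with a median of 15 nt (13 to 17) and quartiles of 6.5 and 38 nt. The gap was shorter than a read in 293 of them, 65.0% (60.5 to 69.2). Gaps of 2 to 5 nt numbered 93, or 23.2 for each nucleotide of distance, and gaps of 76 to 99 nt numbered 36, or 1.5 for each. The fall continued past the limit, with 88 gaps at 100 to 199 nt and 33 at 200 to 299 nt. Gaps of 900 to 999 nt numbered 7. The limit of 100 nt therefore fell within a continuous decline, and no break in the distances was seen there.

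**Figure D1:**
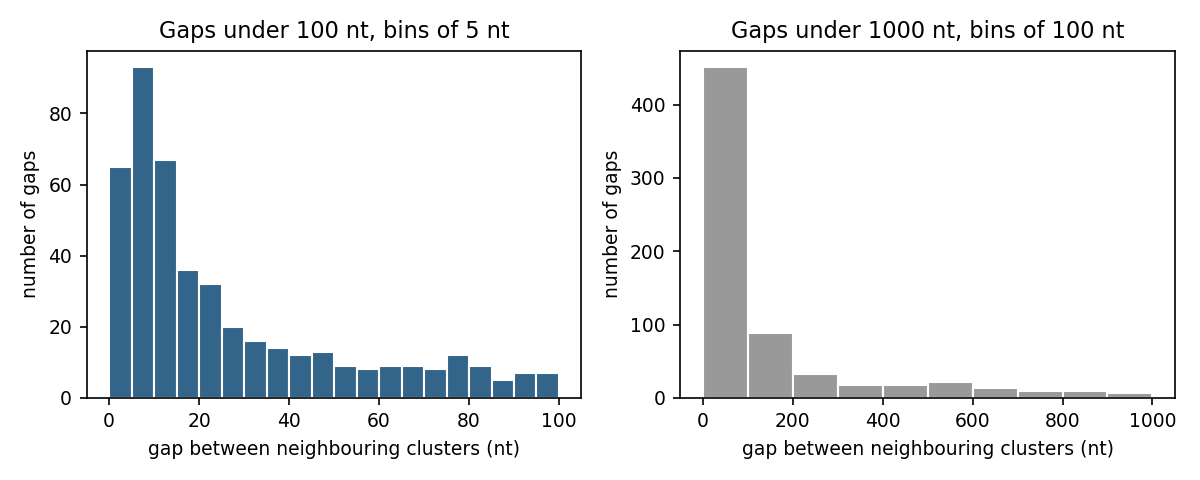
Number of gaps between neighbouring clusters of a strand against the gap in nt, for gaps under 100 nt in bins of 5 nt (left, 451 gaps) and for gaps under 1000 nt in bins of 100 nt (right). Gaps crowd toward short distances, with 451 under 100 nt and 88 at 100 to 199 nt.

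The distances were similar where the ends of both clusters were known. Many listed intervals were shorter than the profile they carried, so that the position of the rest of the cluster is unknown. In 286 of the 451 gaps (63.4%, 58.9 to 67.7) both neighbours were listed in full, apart from the 1 nt by which listed intervals regularly fell short of profiles. These gaps had a median of 16 nt (13 to 20), and 62.6% (56.8 to 68.0) were shorter than a read. The shortest listed gap was 2 nt, which leaves 1 uncovered nucleotide, and the median left 15. The summits of such neighbours, taken as the middle of the highest positions, lay a median of 83.5 nt apart, with quartiles of 62.7 and 122 nt. In 180 of the 286 pairs the summits were under 100 nt apart.

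At the edge of the rule, the gap was 98 nt in the 3 pairs just inside it. The clusters at chr9:86593168-86593194 and chr9:86593293-86593367 (minus strand) held 22 and 27 reads. Those at chr12:98987443-98987508 and chr12:98987607-98987667 (plus strand) held 8 and 6 reads. At chr6:160148551-160148598 (plus strand) and 160148697 to 160148729, both held 3 reads. Just outside, a pair at chr3:11685095-11685159 (minus strand) and 11685260 to 11685298 had a gap of 100 nt, with 6 and 4 reads. Gaps of 103 nt, on the plus strand of chromosome 17, and 104 nt, on the minus strand of chromosome 10, separated clusters of 6 and 16 reads and of 13 and 5 reads.

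Coverage often fell to a single read within a cluster. In 260 close-spaced clusters, 30.8% (27.8 to 34.0), the coverage fell to 1 read between higher parts. Whether the same read spanned the whole of such a stretch was not checked. The share was 29.2% (27.4 to 31.0) in isolated clusters. Such single-read stretches numbered 437 in the 845 close-spaced clusters, overlapping ones counted each, and 1102 in the 2361 isolated clusters.

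Chained together, the close-spaced clusters formed 372 runs, a run being a series in which each cluster lay under 100 nt from the next. Runs of 2 numbered 308 and held 616 clusters. The remaining 229 clusters lay in 42 runs of 3, 12 of 4, 6 of 5, 3 of 6 and 1 of 7. Among the 351 runs without overlapping clusters, the span had a median of 149 nt with quartiles of 111 and 204 nt, and listed intervals filled a median of 87.9% of it. A run held a median of 14 reads, the quartiles being 10 and 24 and the extremes 6 and 149. The cluster with the most reads held a median of 59.1% of the reads of its run. Gaps in runs of 3 or more had a median of 18 nt (12 to 25), and those in runs of 2 a median of 14 nt (12 to 16). Clusters in runs of 3 or more had a median of 7 reads (6 to 8), against 6 (6 to 7) in runs of 2.

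The run with the most clusters was at chr1:46126005-46126865 (minus strand). Its 7 clusters held 6, 28, 19, 20, 9, 3 and 3 reads from the 5′ to the 3′ end, and were separated by gaps of 15, 9, 5, 34, 9 and 46 nt. The highest score, 11, fell in the third cluster, while the second had more reads spread over 244 nt with a score of 6. The second cluster fell to a single read at 6 places.

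A run of 6 clusters lay at chr19:36726671-36727335 (plus strand), with 17, 8, 9, 4, 17 and 6 reads from 5′ to 3′. Reads were highest in the first and the fifth cluster, and the cluster of 4 reads stood between gaps of 58 and 57 nt. Another 6 lay at chr1:173793809-173794350 (plus strand), with 10, 11, 6, 5, 5 and 19 reads. There no gap exceeded 12 nt, and listed intervals filled 92.8% of the run. The last run of 6, at chr1:179834312-179834989 (minus strand), held 7, 17, 10, 4, 10 and 5 reads. It was the loosest of the 3, with gaps of 93 and 96 nt among its 5 and 67.0% of its span listed.

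The 2 richest of the 6 runs of 5 were on chromosomes 2 and 5, both on the minus strand. On chromosome 2, at 61764705 to 61765418, the clusters held 8, 11, 39, 19 and 40 reads, 117 in all, with gaps of 9, 26, 2 and 4 nt. Scores there rose to 13 in the last cluster, so that coverage was highest at the 3′ end. On chromosome 5, at 79945906 to 79946477, the clusters held 46, 5, 13, 20 and 11 reads with gaps of 66, 89, 44 and 11 nt. Its first cluster, of 46 reads, had a 40-nt stretch of read starts in common with a cluster of 39 reads at chr11:10530205-10530346 (minus strand), so its place in the genome is uncertain. No order of reads along the run was common to these 6 runs.

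**Figure D2:**
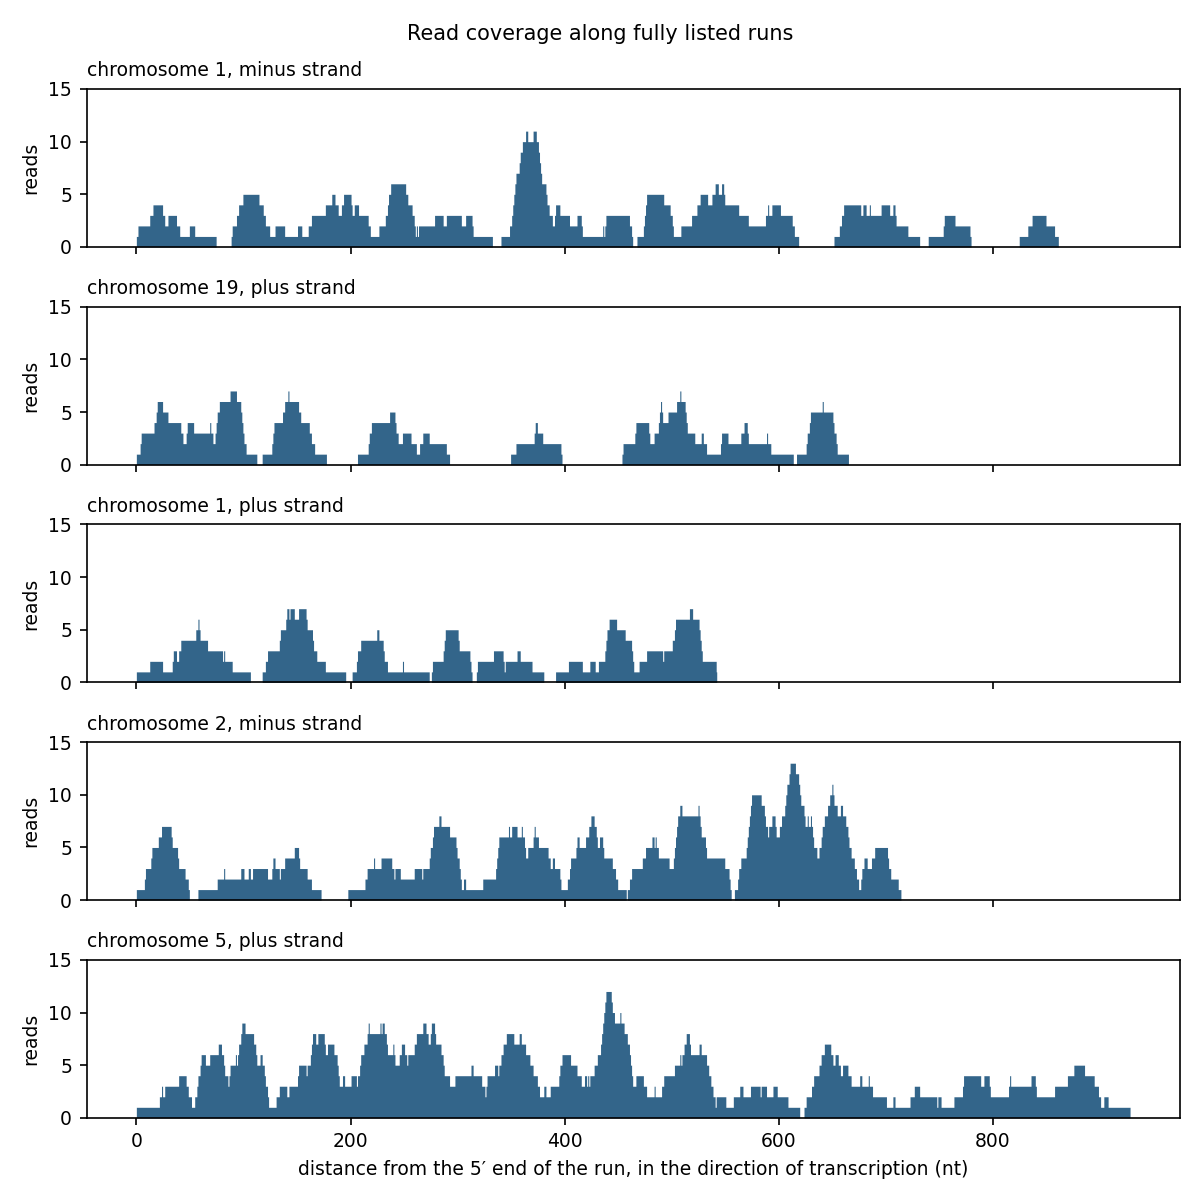
Read coverage (reads, vertical) against distance in nt from the 5′ end of the run for 5 runs listed in full: the runs of 7 and 6 on chromosome 1, of 6 on chromosome 19, of 5 on chromosome 2 and the run of 2 with the most reads, on chromosome 5. Coverage rises and falls within many of the clusters, and most gaps are shorter than the clusters beside them. Exceptions include the gaps of 58 and 57 nt around a cluster with a profile of 48 nt in the chromosome 19 run. The highest point, 13 reads, is in the last cluster of the chromosome 2 run.

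The 10 close-spaced clusters with the most reads had profiles of 123 to 620 nt and scores of 12 to 22. The first was at chr5:56471279-56471897 (plus strand), with 115 reads over 620 nt and a score of 12. It was followed after 5 nt by a cluster of 34 reads over 305 nt at 56471903 to 56472206, and the pair covered 99.5% of 928 nt. Coverage fell to a single read at 4 places within the first and 5 within the second.

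Other long clusters were also followed by a smaller one. A cluster of 68 reads at chr7:139044639-139044970 (plus strand) preceded 10 reads at 139044988 to 139045060, after a gap of 17 nt. One of 65 reads at chr6:114178525-114178775 (plus strand) preceded 14 reads at 114178848 to 114178921, after 72 nt. The 56 reads at chr12:16035320-16035559 (plus strand) were followed by 8 reads after 33 nt. In these 4 runs the upstream cluster held 77.2% to 87.5% of the reads.

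In 3 others among the 10 richest, the cluster with the most reads came last. The run at chr2:207024318-207024703 (plus strand) held 35, 6 and 56 reads from 5′ to 3′, and the run at chr2:232573235-232573416 (plus strand) held 20 and 54. The last cluster reached a score of 22, the highest among close-spaced clusters, reached by 3 of them. A cluster of 53 reads at chr8:101733812-101733970 (minus strand) ended a run of 4 whose clusters held 10, 26, 9 and 53. All 3 of these last clusters were listed shorter than their profiles, by 76, 40 and 77 nt. The other 3 of the 10 belonged to overlapping clusters, which are described below.

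Over all runs of 2 without overlap, reads were divided nearly evenly between the ends. The upstream cluster had more reads in 125 of 293 runs, the downstream cluster in 137, and both had the same number in 31. The median was 6 reads at either place. Where both clusters were listed in full the counts were 72, 70 and 18 of 160. In 101 of the 293 runs (34.5%) the richer cluster had at least 2 times the reads of the other, and the median ratio was 1.6. Reads of the neighbours were weakly related across the 293 runs, with a Spearman's rho of 0.309 and a Pearson's r of 0.342. This is a description over clusters of 1 list, which share libraries and may share a transcript, and none of which had under 3 reads.

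**Figure D3:**
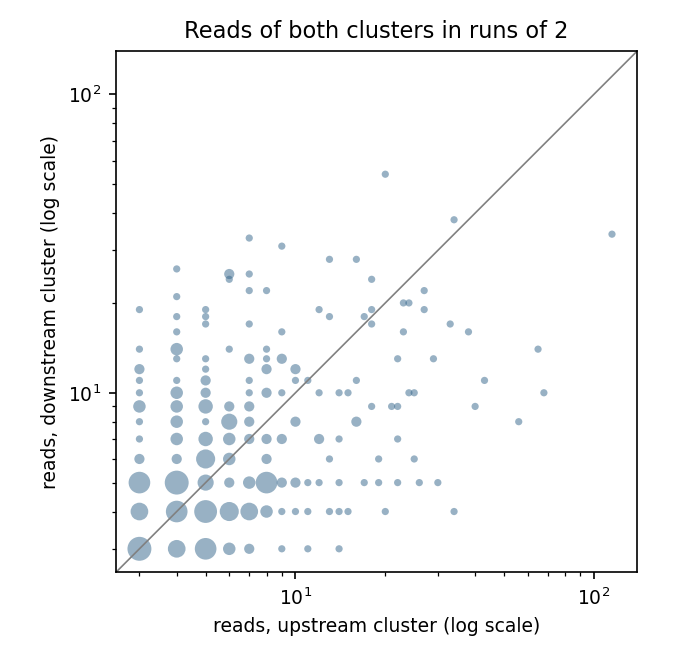
Reads of the downstream cluster against reads of the upstream cluster, both on log scales, for 293 runs of 2 without overlap. The area of a point is proportional to the number of runs with those reads, and the grey line marks equal reads: 125 runs have more reads upstream, 137 downstream and 31 lie on the line.

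Pairs with short gaps held about as many reads as pairs with long ones. The median for both clusters together was 15 reads (13 to 22) in the 59 runs of 2 with gaps of 2 to 5 nt and 13 (12 to 17) in the 57 with gaps of 6 to 10 nt. It was 11 (9 to 13) for gaps of 31 to 50 nt and 13 (10 to 18) for the 22 runs with gaps of 76 to 99 nt.

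Shortening of the listed interval followed the place of a cluster in its run. Of the close-spaced clusters, 213 had no row that showed the full profile, 25.2% (22.4 to 28.2), beside 42.2% of all primary clusters and 48.1% (46.1 to 50.1) of isolated ones. Clusters without such a row are called shortened here, although in some of them several rows together covered the profile. A shortened interval lies farther from its neighbours than the cluster does, so this share is not independent of the distance rule. The same holds for the place in a run, because runs were built from listed intervals. In runs of 2 without overlap, 39 of 293 upstream clusters were shortened, 13.3% (9.89 to 17.7), and 112 of 293 downstream clusters, 38.2% (32.8 to 43.9). In 94 runs only the downstream cluster was shortened, in 21 only the upstream one, in 18 both and in 160 neither. The downstream cluster was thus the shortened one in 81.7% (73.7 to 87.7) of the 115 runs that differed.

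In the 58 runs of 3 or more without overlap, shortened clusters were found at the ends alone. The first cluster was shortened in 10 of the 58, 17.2% (9.64 to 28.9), and the last in 21 of 58, 36.2% (25.1 to 49.1). Of the 93 clusters in between, 0 were shortened, with an interval for the share of 0 to 3.97%. An interval shortened on 1 side lies farther from the neighbour there and can more easily become an end. The absence in between is therefore favoured by the rule, and how far was not tested. In the 6 runs of 3 or more that held an overlap, 4 of 8 clusters in between were shortened, and all 4 overlapped another cluster. Only the one at chr12:57119047-57119140 (minus strand) lacked part of its profile, with 85 nt unlisted. In the others, several rows together covered the profile, apart from the usual 1 nt. The lengths outside the longest row also differed between the ends, without a test. In runs of 2 without overlap, this length had a median of 29.5 nt in shortened downstream clusters, with a range from 1 to 119 nt. In shortened upstream clusters the median was 10 nt, with a range from 1 to 37 nt. In the 58 longer runs it was 42 nt in last clusters and 11.5 nt in first ones.

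Counted by run, the share with shortening was near that of isolated clusters, but a run holds 2 or more clusters, so the units differ. At least 1 cluster was shortened in 159 of the 351 runs without overlap, 45.3% (40.2 to 50.5), against 48.1% (46.1 to 50.1) of isolated clusters. Per cluster, the share was below that of isolated clusters at every place in these runs, and lowest inside and at the 5′ end. Last clusters were at 38.2% (32.8 to 43.9) in runs of 2 and at 36.2% (25.1 to 49.1) in longer runs. The latter interval includes the share of isolated clusters, and no difference was tested. What set the ends of the listed intervals is not given in the sources used here.

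**Figure D4:**
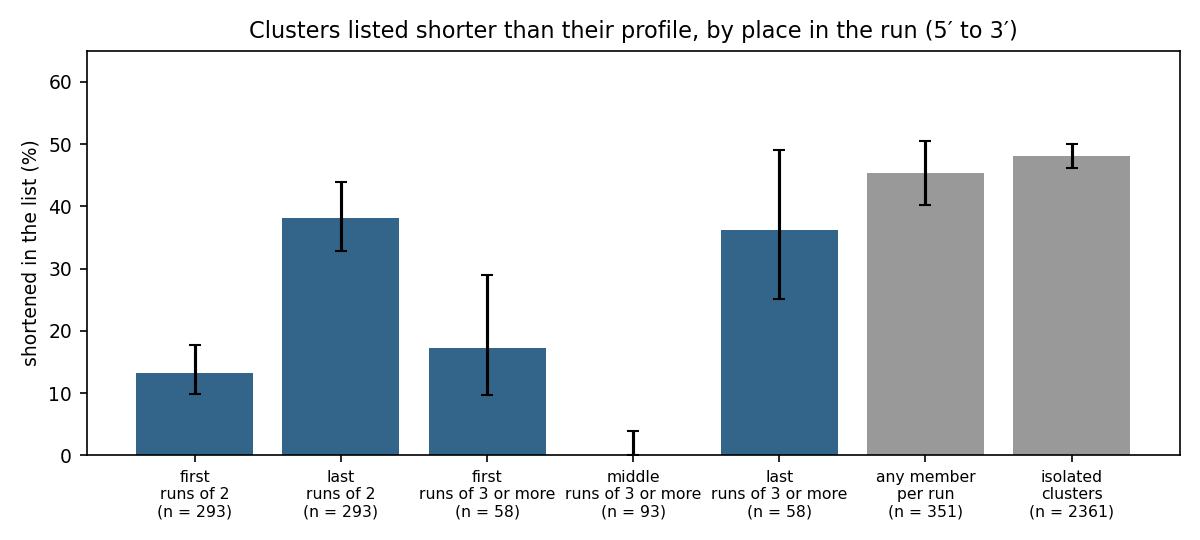
Share of clusters with no row that showed the full profile (percent, bars start at 0), by place from 5′ to 3′ in runs without overlap. Whiskers are 95% Wilson intervals. Grey bars give the share of runs with any shortened cluster and the share of isolated clusters that were shortened. Last clusters (38.2% and 36.2%) stand above first ones (13.3% and 17.2%), and the bar for clusters in between is at 0. Runs were built from listed intervals, so place is not independent of shortening.

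Clusters that were listed both in full and in part showed on which side their own shortened rows fell short. In 44 close-spaced clusters with both kinds of row, 27 shortened rows lacked only the downstream part, 16 only the upstream part and 4 both. These 44 are not among the 213 clusters without a full row, and do not show the side for them. In those 213 the side is unknown, and the missing part could reach across the gap. Of the 451 gaps, 104 (23.1%, 19.4 to 27.2) were no longer than the summed unlisted length of both neighbours. The other 61 gaps beside a shortened cluster were longer than the unlisted length. Where a gap had a shortened neighbour, it was only the downstream one in 115 gaps, only the upstream one in 33 and both in 17.

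Overlapping clusters were the same reads listed more than once with different 5′ ends. They numbered 43, in 21 stretches, and gave 22 adjacent overlaps. In all 22, every read start of the shorter profile was found in the longer one when their downstream ends were aligned, and the listed intervals ended at the same downstream position. With the upstream ends aligned, this held for 0 of 22. The longer profile extended farther upstream by 5 to 234 nt, with a median of 24 nt. The 22 shorter profiles added 363 reads that were already counted in the longer ones, and 15 runs consisted of such overlaps alone. Such clusters met the distance rule by being listed more than once.

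The richest overlaps were on chromosomes 4, 3 and 18. The interval chr4:39460060-39460207 (minus strand) was listed with profiles of 204 and 224 nt, which held 54 and 55 reads. On the plus strand of chromosome 3, profiles of 153 and 165 nt with 39 and 44 reads ended together at 23958780, and began 12 nt apart in the list, at 23958629 and 23958617. On the minus strand of chromosome 18, a profile of 59 nt with 16 reads lay at the downstream end of one of 293 nt with 62 reads, at 47017902 to 47018193. The only stretch with 3 versions was at chr6:86352516-86352676 (minus strand), with 13, 16 and 17 reads.

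Some pairs were listed at more than 1 place in the genome. Of the close-spaced clusters, 413 had profiles intricate enough to be compared between loci (100000 or more possible arrangements of their starts). Among these 413, 11 had the profile of another locus, read in the direction of transcription. They made up 1.3% (0.728 to 2.32) of the 845, near the 0.981% (35 of 3566) of all primary clusters. Clusters with simpler profiles were not compared and were counted as not recurring, so both shares are minimum values. The richest, of 25 reads, lay at chr9:178927-179062 (minus strand), with a copy at chr2:114195353-114195445 (plus strand). Its neighbour of 10 reads at 178862 to 178906 recurred at 70489961 to 70490005 of the same strand. That copy in turn had a neighbour of 24 reads at 70490024 to 70490161, whose read starts matched those of the cluster of 25 over 40 nt. So did clusters of 27 reads at chr9:70856855-70856947 (plus strand) and chr9:69262488-69262580 (minus strand). Such stretches could be searched for in 125 close-spaced clusters and recurred in 9, of which 4 had a whole profile of their own. This share is not given here for all primary clusters. The clusters of 20 and 18 reads that overlapped at chr15:82824837-82824907 (minus strand) both recurred at 83209180 to 83209250. A run of 2 at chr1:206139122-206139198 (plus strand) and 206139213 to 206139269 with 8 and 7 reads, appeared again as a whole on the minus strand at 143912331 to 143912478. Which of the copies the reads came from cannot be told from the list.

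Close-spaced clusters occurred on every primary chromosome except Y, which had 2 clusters in all. Their share was highest on chromosome 4, with 54 of 139 clusters or 38.8% (31.2 to 47.1), in 22 runs. It was lowest, apart from Y, on chromosome 11, with 25 of 182 or 13.7% (9.48 to 19.5), in 12 runs, and on chromosome 14, with 15 of 109 or 13.8% (8.52 to 21.5). Chromosome 1 had the most, 128 of 447 or 28.6% (24.6 to 33.0). Clusters of a run are not independent, so these intervals are too narrow, and no difference between chromosomes was tested. The strands were equally represented, with 422 close-spaced clusters on plus and 423 on minus.

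Beyond their own clusters, runs had company about as often as single clusters did. Another cluster of the strand lay within 1000 nt of 56 of the 372 runs, 15.1% (11.8 to 19.0), and it belonged to another run in 14 of these cases. Of the 2721 clusters without a close neighbour, 360 had another within that distance, 13.2% (12.0 to 14.6). On the opposite strand, 23 close-spaced clusters in 10 runs had a cluster within 1000 nt, 2.72% (1.82 to 4.05), beside 3.81% of all primary clusters. All 23 pointed away from it, with the minus-strand cluster to the left, at distances of 133 to 958 nt with a median of 439 nt. They are not separate cases, since 6 lay in the run at chr1:173793809-173794350 (plus strand). The runs at chr5:64064346-64064491 (minus strand) and 64064874 to 64064973 (plus strand) were each counted opposite the other. This direction is not given here for all primary clusters, so it cannot be called particular to close-spaced ones.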

How the data were processed

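Per the submitters' processing notes, Bowtie (version not stated) aligned the eIF3a reads to hg19. How clusters were called and filtered and how replicates were joined is not given in the sources used here. Data came as 1 list of 4013 rows, in which the authors deposited a signal, in whole reads without normalization, that is the highest coverage of the cluster. Another deposited column, of another kind, gives its coverage profile. Units were read from the values.

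All 3113 distinct profiles split exactly into reads of 25 nt. Profiles run from left to right on both strands: 19 clusters with intricate profiles had a mirrored copy on the opposite strand, 0 an unmirrored one. Merging rows gave 3604 clusters, and 38 outside the primary chromosomes were left out. Neighbours, gaps and runs came from listed intervals. Splitting, gaps and runs were tested on simulated data, with 100% recovered of 2000 profiles and of 1200 intervals. Depth is unknown.

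Named were the 10 clusters with the most reads, the 6 runs with the most clusters, the 6 runs of 2 with the most reads, 3 pairs on each side of the limit and the 6 richest recurring profiles; the stretch with 3 versions, the shortened cluster of chromosome 12, the chromosome 1 copies, the copies and partners on chromosomes 9 and 11, and the chromosomes were named after their values were seen. The members and rules were chosen with earlier results of these data known. Gene groups and motifs were not analysed, since no hg19 annotation or sequence was used here. Python 3.11.15, numpy 2.4.6, pandas 2.3.3, scipy 1.17.1 and matplotlib 3.10.9 were used.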

Additional observations from a re-analysis of the deposited data

How the results depend on the processing

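The number of close-spaced clusters was 845, and 718 and 984 with limits of 50 and 200 nt. It was 808 after merging overlaps, 1403 with rows kept apart, which counts parts of a cluster as neighbours, and 341 among clusters scoring at least the median, where fewer clusters enter. Median reads, profile length and score, the share of shortened clusters and the share of gaps that unlisted length could span stayed within their intervals under all settings listed beforehand (limits of 50 and 200 nt, overlapping or recurring clusters left out, and 1 neighbour's unlisted length alone). The shares of shortened upstream and downstream clusters in runs of 2, and all their alternatives, were chosen after seeing the data. They ranged from 13.0% to 16.5% and from 36.6% to 40.2%. No paired analysis was possible because rows name no replicate, and m6A samples were left out. For the same reason no replicate could be left out. A median of 6 reads limits what single clusters show.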
